A study of Drosophila melanogaster with 12 samples.

Results

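The yolk protein genes *Yp1*, *Yp2* and *Yp3* and the gene of their oocyte receptor, *yl* (yolkless), were followed in RNA-seq libraries of whole adult *Drosophila* females. The genes were chosen by name, and all 4 were found among the 17558 genes of the count table. The study asked which transcripts depend on the estrogen-related receptor (ERR), a nuclear receptor that controls energy metabolism, and compared heat shocked conditional knockout females with siblings that were not heat shocked. It holds 12 libraries in 4 groups of 3, and each library was made from 10 females taken 7 days after the heat shock. The 3 libraries of a group came from separate experiments.

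Females carried either the conditional allele *ERR[cond.2]* or, in the other 6 libraries, *ERR[cond.19-4]*, and these are called stocks here. In *ERR[cond.2]* females a GFP-tagged *ERR* BAC transgene between FRT sites is the functional copy, and both the knockouts and their controls carry the mutant alleles *ERR[1]* and *ERR[2]*. In *ERR[cond.19-4]* females the endogenous gene lies between FRT sites opposite *ERR[2]*, a deletion that also takes parts of a neighbouring autophagy gene and of *CG7979*, and the controls carry this deletion too. Heat shock of young adults triggers removal of the flanked *ERR* copy throughout the body. Since no control female was heat shocked, the effects of heat shock and of *ERR* loss cannot be told apart. All females received wet yeast paste. In the count table the stocks have numbers and no allele names. Number 2 was read as *ERR[cond.2]* throughout, and no source used here states this.

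Yolk proteins are made by the fat body, an organ with the roles of liver and adipose tissue, and by the follicle cells around each growing oocyte. They are secreted, bind Yolkless at the oocyte surface and are carried in by clathrin-coated vesicles to be stored as food for the embryo. The fat body transcribes the Yp genes in females only, under the sex determination factor Doublesex, and their activity follows diet, ecdysone and juvenile hormone. *yl* belongs to the low density lipoprotein receptor family and is transcribed in the germline.

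Library totals ran from 17167432 to 20625801 counts. A log2 fold change sets the knockouts over their own controls, SE is its standard error, and a gene is said to be called when its edgeR p, adjusted over all genes, was under 0.05. *ERR* itself was at 9.98 ± 1.86 CPM (library-scaled counts per 1e+06, SD, n = 3) in *ERR[cond.2]* controls and at 10.1 ± 0.486 CPM in the knockouts, with a log2 fold change of 0.01 (SE 0.17, edgeR adjusted p = 0.988). The *ERR[1]* allele of this stock keeps most of the gene, and its part in these counts was not tested. Whether the transgene was removed was not tested either. With *ERR[cond.19-4]*, *ERR* fell from 6.58 ± 1.08 to 3.69 ± 0.391 CPM, a log2 fold change of −0.83 (SE 0.18, edgeR adjusted p = 0.0228). Of 24 germline genes 23 had counts in each group, all 13 vitelline membrane genes of follicle cells and all 6 fat body storage protein genes had counts in each group, and 16 male genes together took at most 2.2e-04% of the counts of a library.

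All 4 genes lie on the X chromosome, and their coordinates are the same in the table and in the Ensembl BDGP6 annotation. *Yp1* (FBgn0004045) runs from 10053811 to 10055498 on the plus strand and encodes 439 residues. *Yp2* (FBgn0005391) runs from 10050951 to 10052636 on the minus strand and encodes 442 residues. These genes are divergent neighbours whose starts are 1174 bp apart. *Yp3* (FBgn0004047) lies on its own, from 13759546 to 13761547 on the plus strand, and encodes 420 residues. *yl* (FBgn0004649) runs from 14193214 to 14199958 on the plus strand, and its annotated proteins have 1937 and 1984 residues. An antisense lincRNA, *CR45601*, covers 875 of the 1611 exonic bp of *Yp1* and was listed at 0 counts in all 12 libraries. The sources used here do not say whether strand was used in counting, so reads over this stretch may be missing from *Yp1*, and its level is uncertain beside those of *Yp2* and *Yp3*. A microRNA gene, *mir-4917*, lies in 77 exonic bp of *yl* and was also listed at 0.

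The yolk protein transcripts were among the most abundant in the animal. Ranked by counts among all genes, *Yp2* and *Yp3* stood between places 2 and 4 in every library, *Yp1* between places 4 and 8, and *yl* between places 136 and 205. Together the 3 yolk protein genes took 8.65%, 5.65% and 8.26% of all counts in the *ERR[cond.2]* controls, and 2.90%, 3.73% and 5.01% in the *ERR[cond.2]* knockouts. They took 2.77%, 2.84% and 3.37% in the *ERR[cond.19-4]* controls, and 2.93%, 2.95% and 2.95% in the *ERR[cond.19-4]* knockouts. Every *ERR[cond.2]* control lay above every other library, and the *ERR[cond.19-4]* knockouts lay inside the range of their controls.

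**Figure D1:**
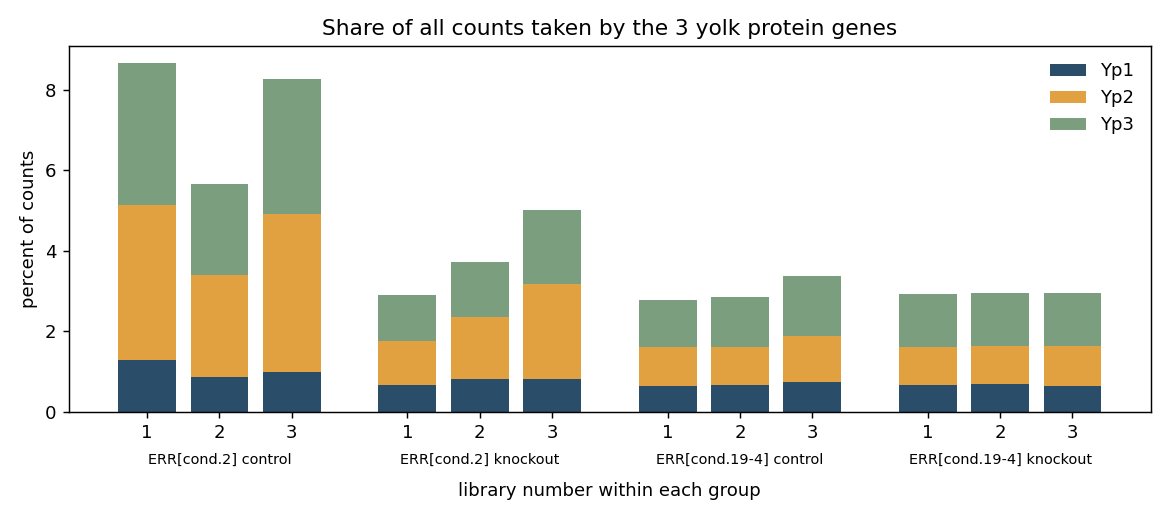
Share of all counts taken by *Yp1*, *Yp2* and *Yp3* (percent, stacked) in each of the 12 libraries, grouped by stock and condition. The *ERR[cond.2]* controls reach 5.65% to 8.65%, the *ERR[cond.2]* knockouts 2.90% to 5.01%, and both *ERR[cond.19-4]* groups stay between 2.77% and 3.37%.

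Mean shares were 7.52% ± 1.63 (SD, n = 3) in *ERR[cond.2]* controls and 3.88% ± 1.07 in the knockouts, a difference of −3.64 percentage points (exact permutation test, two-sided, p = 0.1, the smallest that 3 against 3 libraries can give). The shares in the other stock were 2.99% ± 0.329 in controls and 2.94% ± 0.0129 in knockouts, and the difference of −0.05 points was within the spread of the controls (exact permutation test, two-sided, p = 1). The *ERR[cond.2]* controls exceeded the *ERR[cond.19-4]* controls by 4.52 points (exact permutation test, two-sided, p = 0.1). In whole-body RNA, fewer cells of a type and less RNA per cell cannot be told apart, here or in the results that follow.

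Scaled to CPM by the trimmed mean of M values (TMM) over the 12 libraries, *Yp3* stood at 40158, 23067 and 35698 CPM in *ERR[cond.2]* controls and at 11529, 14427 and 18363 CPM in the knockouts. The groups did not overlap, and the lowest control was library 2. *Yp3* was at 10793, 11665 and 14695 CPM in *ERR[cond.19-4]* controls and at 12761, 12560 and 12584 CPM in the knockouts. These knockouts fell between the controls.

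*Yp2* stood at 43777, 25823 and 41933 CPM in *ERR[cond.2]* controls and at 11114, 15763 and 23424 CPM in the knockouts. The highest knockout, library 3, came close to the lowest control, library 2, without reaching it. *Yp2* was at 8781, 9156 and 11387 CPM in *ERR[cond.19-4]* controls and at 9131, 9111 and 9461 CPM in the knockouts. All of these but control 3 were below the lowest *ERR[cond.2]* knockout.

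*Yp1* stood at 14630, 8764 and 10553 CPM in *ERR[cond.2]* controls and at 6641, 8579 and 8088 CPM in the knockouts. The groups were separated by a narrow gap, between control 2 and knockout 2. *Yp1* was at 6017, 6258 and 7325 CPM in *ERR[cond.19-4]* controls and at 6429, 6609 and 6003 CPM in the knockouts, and these groups overlapped.

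The receptor gene *yl* stood at 719, 848 and 829 CPM in *ERR[cond.2]* controls and at 960, 907 and 987 CPM in the knockouts. It differed in direction from the yolk protein genes, with every knockout above every control. *yl* was at 849, 899 and 872 CPM in *ERR[cond.19-4]* controls and at 887, 880 and 846 CPM in the knockouts, which overlapped. Control 1 of *ERR[cond.2]*, the library with the highest *Yp1*, *Yp2* and *Yp3*, had the lowest *yl*.

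**Figure D2:**
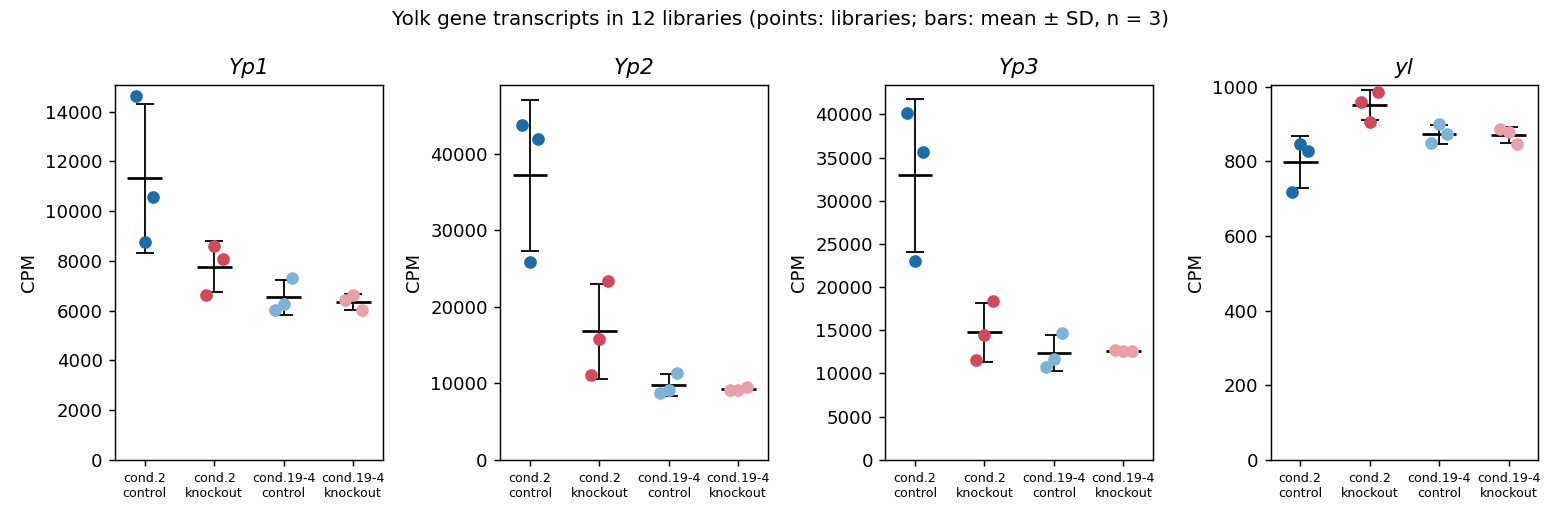
Levels of *Yp1*, *Yp2*, *Yp3* and *yl* in CPM in the 12 libraries (points), with the mean and SD of each group of 3 (lines and bars). The *ERR[cond.2]* controls are highest for *Yp1*, *Yp2* and *Yp3* and have the lowest mean for *yl*, and the control and knockout points of *ERR[cond.19-4]* overlap in every panel.

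Per kb of the deposited gene length, which allows a comparison between genes, the mean levels in *ERR[cond.2]* controls were 22977 ± 6104 CPM per kb for *Yp2*, 17652 ± 4746 for *Yp3*, 7024 for *Yp1* and 126 for *yl*. By this length the order of *Yp2* and *Yp3* differed between stocks. In *ERR[cond.19-4]* controls *Yp3* came first with 6630 ± 1096 CPM per kb and *Yp2* second with 6041 ± 871, and *Yp1* followed with 4055 ± 432. In *ERR[cond.19-4]* knockouts *Yp3* was at 6764 ± 58.6 and *Yp2* at 5707 ± 121 CPM per kb. In *ERR[cond.2]* knockouts *Yp2* was at 10363 ± 3842 and *Yp3* at 7908 ± 1836 CPM per kb. These SDs are spreads between libraries that the genes share, and within libraries *Yp2* was above *Yp3* per kb in 3 of 3 of each *ERR[cond.2]* group and *Yp3* above *Yp2* in 3 of 3 of each *ERR[cond.19-4]* group. The deposited 1868 bp of *Yp3* is that of its longer transcript, and the other has 1488 exonic bp. By this shorter length, with that of *Yp2* unchanged, the order would turn in *ERR[cond.2]* knockout 1. There *Yp3* had more counts than *Yp2* (216633 and 208843). In the other *ERR[cond.2]* libraries *Yp2* would stay above *Yp3*, by little in control 1 and knockout 2. Which transcript was present was not tested.

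In *ERR[cond.2]* females all 4 genes separated the knockouts from the controls, and none passed the edgeR test at an adjusted p under 0.05. The libraries of the groups did not overlap for 4 of 4 genes, beside 30.5% of all genes tested. By edgeR 0 of 4 were called, beside 0.631% of the 9660 genes tested, whereas 4 of 4 had an unadjusted p under 0.05, beside 22.4%. *Yp3* had a log2 fold change of −1.16 (SE 0.25, 95% interval −1.75 to −0.58, edgeR adjusted p = 0.109). *Yp2* had −1.15 (SE 0.31, interval −1.89 to −0.42, edgeR adjusted p = 0.135), and *Yp1* a smaller value of −0.55 (SE 0.20, interval −1.02 to −0.08, edgeR adjusted p = 0.183). In terms of fold, the fitted control level was 2.24 times the knockout level for *Yp3*, 2.23 times for *Yp2* and 1.46 times for *Yp1*. *yl* had a log2 fold change of 0.24 (SE 0.10, interval 0.01 to 0.47, edgeR adjusted p = 0.208). The value of *Yp1* rested most on 1 library and was −0.33 without control 1 (edgeR adjusted p = 0.319).

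The call in *ERR[cond.2]* females depended on the method. DESeq2 called 2 of 4 genes, *Yp3* (adjusted p = 2.1e-04) and *Yp2* (adjusted p = 0.00417), beside 6.59% of genes with a DESeq2 adjusted p. In an edgeR fit of all 12 libraries, where the tighter *ERR[cond.19-4]* groups share in the estimate of spread, all 4 were called, beside 14.1% of all genes in that fit, with adjusted p = 0.0439 for *Yp1*, 0.0140 for *Yp2*, 0.00733 for *Yp3* and 0.0332 for *yl*.

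No difference was detected in *ERR[cond.19-4]* females for any of the 4 genes. The point estimates of the yolk protein genes in the other stock lay outside the intervals, but they have errors of their own. For *Yp1* the intervals of the stocks overlapped, with −1.02 to −0.08 in *ERR[cond.2]* females. Whether the stocks differ is tested by the interaction below. *Yp1* had a log2 fold change of −0.04 (SE 0.07, interval −0.19 to 0.12, edgeR adjusted p = 0.855) and *Yp2* of −0.08 (SE 0.08, interval −0.26 to 0.10, edgeR adjusted p = 0.726). *Yp3* had 0.03 (SE 0.09, interval −0.17 to 0.23, edgeR adjusted p = 0.902) and *yl* 0.00 (SE 0.04, interval −0.10 to 0.10, edgeR adjusted p = 0.998). By edgeR 0 of 4 were called, beside 3.7% of 9717 genes, with 0 of 4 at an unadjusted p under 0.05, beside 15.4%, and 0 of 4 called by DESeq2, beside 4.09%. Groups without overlap were found for 0 of 4 genes, beside 20.4% of all genes.

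The difference between the stocks in the knockout change was tested as the interaction over all 12 libraries. It was −1.19 on the log2 scale for *Yp3* (SE 0.29, edgeR adjusted p = 0.0939), −1.07 for *Yp2* (SE 0.34, edgeR adjusted p = 0.129), −0.50 for *Yp1* (SE 0.23, edgeR adjusted p = 0.221) and 0.26 for *yl* (SE 0.10, edgeR adjusted p = 0.163). By edgeR 0 of 4 passed, beside 0.0598% of 10029 genes, and 4 of 4 had an unadjusted p under 0.05, beside 22.2%. DESeq2 called 2 of 4, *Yp3* (adjusted p = 0.00414) and *Yp2* (adjusted p = 0.0362), beside 5.03%. Single libraries decided the edgeR call. Without control 2 of *ERR[cond.2]*, 1 gene was called, *Yp3* (−1.40, adjusted p = 0.0325), beside 0.961% of all genes, and without knockout 3 of *ERR[cond.2]*, 2 genes were called, *Yp3* (−1.38, adjusted p = 0.0281) and *Yp2* (−1.39, adjusted p = 0.0303), beside 4.8% of all genes.

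The yolk protein genes had larger fold changes between the control groups than between knockouts and controls of either stock. *Yp2* was higher in *ERR[cond.2]* controls by 1.93 on the log2 scale, or 3.80 times (SE 0.25, edgeR adjusted p = 1.1e-04). *Yp3* was higher by 1.41, or 2.66 times (SE 0.20, edgeR adjusted p = 2.2e-04), and *Yp1* by 0.79, or 1.73 times (SE 0.16, edgeR adjusted p = 0.00184). *yl* had −0.13 (SE 0.07, edgeR adjusted p = 0.142). By edgeR 3 of 4 were called, beside 46.9% of all genes, with 3 of 4 at an unadjusted p under 0.05, beside 53.7%. DESeq2 called 3 of 4, beside 42.7%, and 4 of 4 did not overlap, beside 56.5%, so differences between these stocks were common. The *ERR[cond.2]* controls enter this comparison and the knockout comparison, so the values of the one are not independent of the other. With total counts in place of TMM the median gene moved from −0.02 to −0.19 here, and *yl* had −0.29 (edgeR adjusted p = 0.0200).

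**Figure D3:**
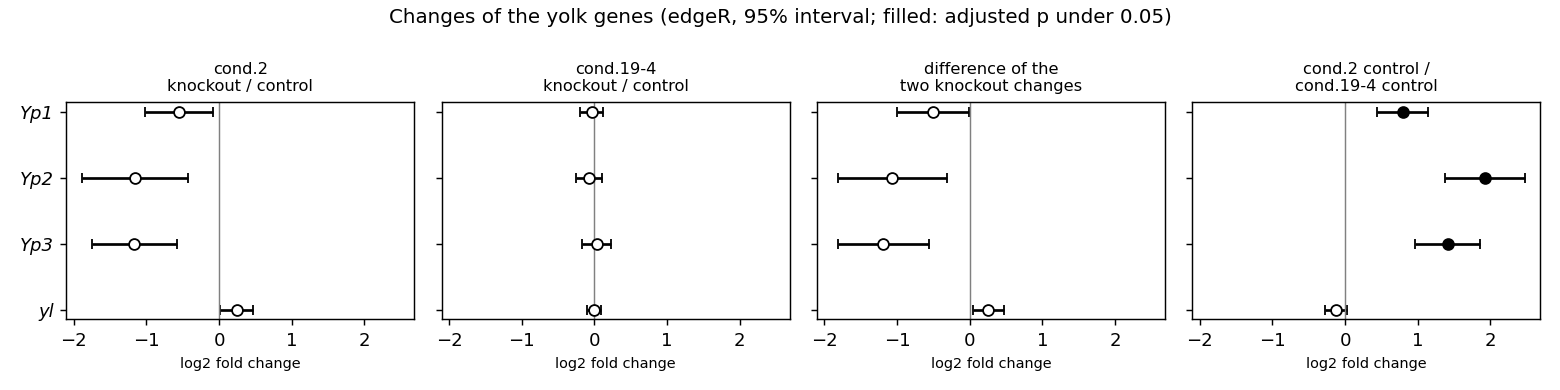
Log2 fold changes of *Yp1*, *Yp2*, *Yp3* and *yl* with 95% intervals in 4 edgeR comparisons. Filled points have an adjusted p under 0.05, and these are *Yp1*, *Yp2* and *Yp3* between the control groups only, at 0.79, 1.93 and 1.41.

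The yolk protein genes also differed in proportion to each other, a measure that does not depend on library scaling. Of the counts of the 3 genes, *Yp1* made up 14.8%, 15.2% and 12.0% in *ERR[cond.2]* controls and 22.7%, 22.1% and 16.2% in the knockouts. It made up 21.9% to 23.5% in *ERR[cond.19-4]* controls and 21.4% to 23.4% in the knockouts. Thus the *ERR[cond.2]* controls had the lowest *Yp1* proportion of all libraries, and *ERR[cond.2]* knockouts 1 and 2 lay within the range of the *ERR[cond.19-4]* females.

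The number of *Yp2* counts per *Yp1* count was 2.99, 2.95 and 3.97 in *ERR[cond.2]* controls and 1.67, 1.84 and 2.90 in the knockouts. It was 1.46, 1.46 and 1.55 in *ERR[cond.19-4]* controls and 1.42, 1.38 and 1.58 in the knockouts. These divergent neighbours thus did not keep a fixed ratio, and it was highest in the *ERR[cond.2]* controls. *Yp2* per *Yp3* was 1.13 ± 0.0429 and 1.11 ± 0.157 in *ERR[cond.2]* controls and knockouts, and 0.791 ± 0.0201 and 0.731 ± 0.0188 in the *ERR[cond.19-4]* groups, so that it separated the stocks in all 12 libraries.

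Per count of *yl*, the yolk protein genes had 137, 68.0 and 106 counts in *ERR[cond.2]* controls and 30.5, 42.8 and 50.6 in the knockouts. With *ERR[cond.19-4]* they had 30.2, 30.1 and 38.3 in controls and 31.9, 32.1 and 33.1 in knockouts. Thus *ERR[cond.2]* knockout 1 lay within the range of the other stock, and knockouts 2 and 3 lay above all 6 of its libraries.

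Genes next to the members were examined for shared changes. *Cht6*, a chitinase gene that ends 147 bp from *Yp2*, had a log2 fold change of −0.74 in *ERR[cond.2]* females (edgeR adjusted p = 0.148), and *CG15312*, 130 bp beyond *Yp1*, had 0.68 (edgeR adjusted p = 0.157), so that these flanking genes differed in direction. *CR45185*, a lincRNA gene 2794 bp from *Yp2* on the side of *Cht6*, had 1.12 (edgeR adjusted p = 0.185), at only 5 to 26 counts per library. The 4 neighbours of *Yp3* had −0.44 to −0.06 in *ERR[cond.2]* females, and the one with the largest change was *Rtc1* (edgeR adjusted p = 0.162). One of them, *CG32625*, fell by 0.50 in *ERR[cond.19-4]* females (edgeR adjusted p = 0.0140), where *Yp3* had 0.03. *CG11590*, 219 bp beyond *yl*, had −0.21 in *ERR[cond.2]* females (edgeR adjusted p = 0.202) and *l(1)G0007* had 0.05.

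Follicle cells make both yolk proteins and the eggshell. In *ERR[cond.2]* females all 13 vitelline membrane and early eggshell genes had higher fitted levels in knockouts, opposite to the yolk protein genes, with a median log2 fold change of 1.10 beside −0.01 for all genes. By edgeR 0 of 13 were called, 11 had an unadjusted p under 0.05, and DESeq2 called 9. *Vm26Aa*, a major vitelline membrane protein, averaged 1772 CPM in controls and 4816 CPM in knockouts, with SDs of 682 and 1481 (log2 fold change 1.43, edgeR adjusted p = 0.120). *Femcoat*, an eggshell protein, had 1.49 (edgeR adjusted p = 0.106). All 9 chorion genes also had higher fitted levels, with a median of 1.10, 0 called by edgeR, 8 at an unadjusted p under 0.05 and 4 called by DESeq2. The medians in *ERR[cond.19-4]* females were −0.02 for the vitelline membrane list, with 0 of 13 called by edgeR, 3 at an unadjusted p under 0.05 and 0 by DESeq2, and −0.24 for the chorion list. All 9 chorion genes had negative fold changes there, 3 at an unadjusted p under 0.05 and 3 called by DESeq2, and edgeR called 1, *Cp7Fc*, which fell by 0.44 (edgeR adjusted p = 8.0e-04). Between controls all 13 vitelline membrane genes and all 9 chorion genes had lower fitted levels in *ERR[cond.2]* females, and edgeR called 11 and 9 of them, beside 46.9% of all genes, with medians of −1.46 and −1.34. For these and the lists that follow, the median over all genes tested was −0.01 in the *ERR[cond.2]* knockout comparison, −0.0034 in that of *ERR[cond.19-4]* and −0.02 between controls. In the same order, edgeR called 0.631%, 3.7% and 46.9% of all genes, and 22.4%, 15.4% and 53.7% had an unadjusted p under 0.05. DESeq2 called 6.59%, 4.09% and 42.7% of the genes with a DESeq2 adjusted p.

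The vitelline membrane list took 0.356%, 0.786% and 0.607% of counts in *ERR[cond.2]* controls and 1.80%, 1.44% and 0.992% in the knockouts. In this stock a library with a higher yolk protein share had a lower share of this list, in every one of the 6 libraries and within each group of 3. Pearson's r was −0.951 and Spearman's rho −1 over the 6 libraries (exact permutation p = 0.00278 for both, adjusted over 6 relations p = 0.00833), and r was −0.998 without the 2 libraries farthest from the median. For the chorion list r was −0.952 and rho −1 (exact permutation p = 0.00278 for both, adjusted p = 0.00833), and r was −0.983 without those libraries. These 6 libraries include both conditions, and the permutations, here and for the relations below, exchanged libraries between conditions. The p-values of these relations therefore also reflect the difference between knockouts and controls, and do not test a relation within a condition. The values share one total, although r was −0.951 and −0.950 for the lists when yolk protein counts were left out of that total.

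In *ERR[cond.19-4]* females the inverse order was not found over the 6 libraries. There r with the vitelline membrane list was 0.977 and rho 0.829 (exact permutation p = 0.0111 and 0.0583, adjusted p = 0.0222 and 0.0875), but r was 0.581 without the 2 farthest libraries, so that the relation rests on those. With the chorion list r was 0.539 and rho 0.2 (exact permutation p = 0.433 and 0.714, adjusted p = 0.433 and 0.714), and r was −0.993 and rho −1 without the 2 farthest (exact permutation p = 0.0833 for both, the smallest that 4 libraries can give, adjusted p = 0.167). The yolk share spanned only 2.77% to 3.37% in this stock.

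The yolk share and *yl* were also inversely ordered. In *ERR[cond.2]* libraries r was −0.827 and rho −0.829 (exact permutation p = 0.0417 and 0.0583, adjusted p = 0.0625 and 0.0875), and r was −0.305 without the 2 farthest libraries, so that it rests on them. In *ERR[cond.19-4]* libraries r was −0.749 and rho −0.771 (exact permutation p = 0.0611 and 0.103, adjusted p = 0.0733 and 0.123), and −0.831 without the 2 farthest. None of these passed the adjusted threshold of 0.05.

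**Figure D4:**
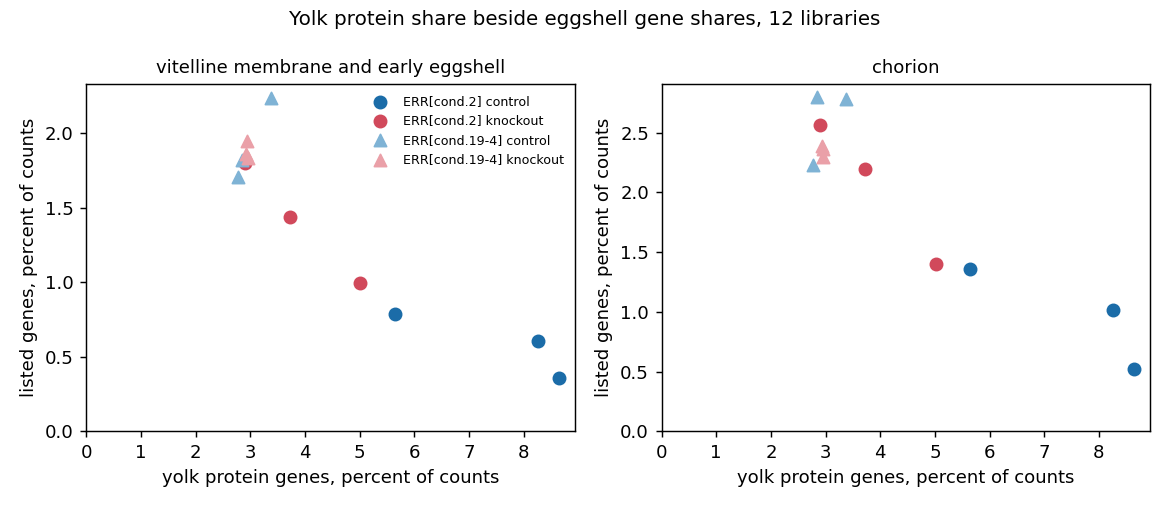
Share of counts of the vitelline membrane list (left) and the chorion list (right) against the share of the yolk protein genes, in percent, for the 12 libraries. The 6 *ERR[cond.2]* libraries (circles) descend from upper left to lower right, with r of −0.951 and −0.952, and the *ERR[cond.19-4]* libraries (triangles) cluster at yolk shares of 2.77% to 3.37%.

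Among genes of the fat body, the other source of yolk proteins, the storage protein genes had fold changes of the same sign in *ERR[cond.2]* females. The 4 tested of 6 storage protein genes all had negative fold changes, with a median of −1.61. By edgeR 0 were called, 4 had an unadjusted p under 0.05 and DESeq2 called 4. *Fbp1*, the receptor through which the fat body takes up storage proteins, had means of 5.79 CPM in controls and 1.93 CPM in knockouts (−1.59 on the log2 scale, edgeR adjusted p = 0.0599). *Lsp1alpha*, a larval serum protein gene, rose by 1.31 in *ERR[cond.19-4]* females (edgeR adjusted p = 2.0e-04), where the yolk genes did not differ detectably. Summed, the storage list took 0.0499% to 0.109% of counts in *ERR[cond.2]* controls and 0.0189% to 0.0338% in knockouts, and the germline list took 0.477% to 0.545% and 0.512% to 0.577%. The part of cell composition in the yolk gene values was not tested.

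A further list mixed fat body genes that depend on sex or diet with general nutrient signalling genes, such as *InR*, *chico*, *Akt1*, *Tor* and *foxo*. It shares *Fbp1*, *Fbp2* and *Lsp2* with the storage list, so the counts of these lists are not separate. Of its 15 tested genes none was called by edgeR in *ERR[cond.2]* females. There 6 had an unadjusted p under 0.05 and 6 were called by DESeq2, 5 of them lower. *fit*, a female-enriched fat body gene that responds to protein feeding, had a log2 fold change of −1.04 (edgeR adjusted p = 0.0528). Of the same genes in *ERR[cond.19-4]* females 0 of 15 were called by edgeR, 4 had an unadjusted p under 0.05 and 0 were called by DESeq2. The median was −0.06 and −0.07 in the stocks.

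The regulators of yolk gene transcription did not pass the test in either knockout comparison. Of 12 tested regulators in *ERR[cond.2]* females 0 were called by edgeR. An unadjusted p under 0.05 was found for 3, beside 22.4% of all genes, and DESeq2 called 1, beside 6.59%. *srp*, a GATA factor of the fat body, had 0.56 (edgeR adjusted p = 0.119), and *dsx*, the source of Doublesex, had −0.40 (edgeR adjusted p = 0.218). For *ERR[cond.19-4]* 0 of 13 were called by edgeR, with 2 at an unadjusted p under 0.05 and 0 called by DESeq2. Between controls 6 of 13 (46.2%) were called by edgeR, beside 46.9% of all genes, 5 of them lower in *ERR[cond.2]* females and 1 higher. Among them were *ix*, a cofactor of the female Doublesex protein, at −0.64 (edgeR adjusted p = 8.4e-04), and *tra* at −0.52 (edgeR adjusted p = 0.00521). *dsx* itself had 0.14 there (edgeR adjusted p = 0.550).

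Of 24 tested genes of ecdysone and juvenile hormone signalling, 0 were called by edgeR in *ERR[cond.2]* females. At an unadjusted p under 0.05 there were 5, beside 22.4% of all genes, and DESeq2 called 2, both higher, beside 6.59%. *br*, an ecdysone response gene of follicle cells, averaged 3.75 CPM in controls and 7.46 CPM in knockouts, with SDs of 0.508 and 1.40 (log2 fold change 0.98, edgeR adjusted p = 0.110). *jhamt*, an enzyme of juvenile hormone synthesis, had −0.98 (edgeR adjusted p = 0.158) at a level of 1.90 ± 0.393 CPM in controls. For *ERR[cond.19-4]* 0 of 24 were called by edgeR, 4 had an unadjusted p under 0.05 and DESeq2 called 0. Between controls 12 of 25 (48.0%) were called by edgeR, beside 46.9% of all genes. Of these 5 were lower in *ERR[cond.2]* females, *br* at −1.35 (edgeR adjusted p = 8.7e-05) and *spo*, an ecdysone synthesis enzyme, at −2.18 (edgeR adjusted p = 3.7e-04), and 7 were higher.

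Genes for uptake of yolk into the oocyte gave 0 calls in 24 tested by edgeR in *ERR[cond.2]* females, with a median of 0.04. An unadjusted p under 0.05 was found for 6, beside 22.4% of all genes, and DESeq2 called 0, beside 6.59%. *Chc*, the clathrin heavy chain, averaged 234 CPM in controls and 283 CPM in knockouts, with SDs of 12.8 and 6.56 (log2 fold change 0.26, edgeR adjusted p = 0.153). *boca*, a chaperone that brings Yolkless to the cell surface, had −0.12 (edgeR adjusted p = 0.400). For *ERR[cond.19-4]* 0 of 24 were called by edgeR, 2 had an unadjusted p under 0.05 and DESeq2 called 0.

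The other 7 receptors of the low density lipoprotein receptor family gave 0 calls in *ERR[cond.2]* females by edgeR, with 3 at an unadjusted p under 0.05 and 1 by DESeq2. 6 of the 7 had negative fold changes where *yl* had a positive one. Between controls 5 of 7 were called higher in *ERR[cond.2]* females and 1 lower, beside 46.9% of all genes called in either direction. There *yl* had −0.13. *LpR2*, a lipophorin receptor, was at 489 ± 116 CPM in *ERR[cond.2]* controls and 118 ± 2.41 CPM in *ERR[cond.19-4]* controls (log2 difference 2.05, edgeR adjusted p = 1.8e-05), and *LpR1* had 1.09 (edgeR adjusted p = 1.0e-04).

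All 6 genes of the lipoprotein particle list were tested. In *ERR[cond.2]* knockouts 0 were called by edgeR, 2 had an unadjusted p under 0.05 and DESeq2 called 0, and the median was −0.55. In *ERR[cond.19-4]* knockouts *Rfabg*, the lipophorin apolipoprotein gene, rose by 0.23 (edgeR adjusted p = 0.0235). Between controls 4 were called higher by edgeR in *ERR[cond.2]* females and 1 lower, beside 46.9% of all genes called in either direction. *Apoltp*, the lipid transfer particle apolipoprotein, was higher by 4.40 (edgeR adjusted p = 5.8e-06), a larger difference than that of any yolk gene.

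The yolk proteins belong to a lipase superfamily, and 17 of its 26 other listed genes were tested in each knockout comparison. In *ERR[cond.2]* females 0 were called by edgeR, 5 had an unadjusted p under 0.05 and DESeq2 called 3. Of these genes *CG6296* fell by 1.26 in *ERR[cond.19-4]* females (edgeR adjusted p = 5.3e-04), *CG17192* fell by 0.93 (edgeR adjusted p = 7.1e-04), and *CG6271* and *CG6283* were higher by 2.96 and 0.39 (edgeR adjusted p = 0.00666 and 0.0481). The yolk genes had no such calls there.

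In the germline list, the source of *yl* transcripts, *nos*, the posterior determinant, fell by 0.56 in *ERR[cond.2]* knockouts (edgeR adjusted p = 0.0380) and was the only one of 23 genes called, and *yl* had 0.24. *aret*, a translational repressor of the oocyte, fell by 0.24 in *ERR[cond.19-4]* knockouts (edgeR adjusted p = 0.00590), again the only call. The medians were 0.02 and −0.05. In these comparisons 5 and 4 of the 23 genes had an unadjusted p under 0.05, and DESeq2 called 3 and 1, all lower. Of 13 tested ovulation and egg laying genes 0 were called in either knockout comparison by edgeR, with 2 at an unadjusted p under 0.05 in each and 1 by DESeq2 in each.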

How the data were processed

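For 12 libraries the authors deposited counts of reads per gene, without normalization, made from paired reads with TopHat and HTSeq. No version, genome build or strand setting is given in the sources used here. The gene length in bp was used as the authors deposited it. Of 17252 genes found in the Ensembl BDGP6 annotation used here, 16959 (98.3%) had the same coordinates as in the table.

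The quasi-likelihood test of edgeR 4.0.16 (R 4.3.3) was run on the counts with TMM and filterByExpr, each stock on its own 6 libraries, and the difference between the stocks and the control groups on all 12. Benjamini-Hochberg adjustment covered every gene tested, an adjusted p under 0.05 made a call, and 95% intervals used the t distribution with edgeR's degrees of freedom. Printed CPM were scaled over all 12 libraries. Shares of counts were compared with exact permutation tests in scipy 1.17.1, which cannot go below p = 0.1 for 3 against 3. The design was tested on simulated data. The p-values of the group comparisons measure the spread between the 3 experiments of a group.

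The members and the 13 gene lists were chosen with earlier results of these data known. Named genes are the members, up to 4 genes per list and comparison with the lowest p, the 2 genes nearest on each side of the members, and the 5 genes most and 5 least alike in pattern. *boca*, and *dsx* between controls, were named outside this rule after their values were seen. Gene symbols are those of the table, except for 1 entry changed to a date by a spreadsheet, which was matched by identifier. Promoter sequences were planned but are not shown here, since no sequence was used.

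The settings tried besides these were DESeq2 1.42.0, edgeR with the size factors of DESeq2, total counts, library sizes without the yolk protein genes, a filter keeping all genes with any count, a filter at 10 counts per library, the replicate number as a block, all 12 libraries in 1 fit or the 6 controls alone, other denominators for the shares, log2 measures in the relations, both *ERR[cond.2]* libraries 1 left out, and each library left out in turn.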

Additional observations from a re-analysis of the deposited data

Results flagged for a closer look

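The proportion of *Yp3* among yolk protein counts differed between knockouts and controls in opposite directions in the stocks. In *ERR[cond.2]* females it was 40.7%, 40.0% and 40.5% in controls and 39.4%, 37.2% and 36.8% in knockouts, a mean difference of −2.61 percentage points, and every knockout was below every control. In *ERR[cond.19-4]* females it was 42.2%, 43.1% and 44.0% in controls and 45.1%, 44.4% and 44.9% in knockouts, a mean difference of 1.70 points, and every knockout was above every control. The difference between the stocks in this proportion was not tested.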

How the results depend on the processing

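The count of yolk genes called in *ERR[cond.2]* females moved from 0 by edgeR to 2 with DESeq2 and to 4 with all 12 libraries in 1 fit, in which the calls over all genes went from 61 to 1414 (14.1%), and stayed at 0 in the other settings, each library left out in turn included (lowest 0, highest 0). The count called for the difference between the stocks was 2 with DESeq2 and ran from 0 to 2 with a library left out, with 1 without control 2 and 2 without knockout 3 of *ERR[cond.2]*, where the calls over all genes went from 6 to 98 and 489. With a library of *ERR[cond.2]* left out the knockout fold changes of that stock ran from −0.71 to −0.33 for *Yp1*, −1.48 to −0.94 for *Yp2*, −1.37 to −1.003 for *Yp3* and 0.17 to 0.29 for *yl*, and were −0.22, −0.80, −0.85 and 0.16 without both libraries 1. In *ERR[cond.19-4]* females the count was 0 throughout, and near 0 the sign of single genes turned. *yl* had −0.0030 with DESeq2, −0.0031 with its size factors in edgeR, −0.0040 with all 12 libraries, −0.0034 with every gene counted at least once and −0.010 with total counts. With a library left out its values ran from −0.019 to 0.020, those of *Yp3* from −0.055 to 0.17, of *Yp1* from −0.092 to 0.051 and of *Yp2* from −0.15 to 0.045, and the difference in yolk share ran from −0.165 to 0.136 points. Between controls 3 genes were called with each library left out and 3 to 4 in the other settings. In *ERR[cond.2]* females the share difference ran from −4.57 to −3.07 points with a library left out and was −2.58 (exact permutation p = 0.333) without both libraries 1. Without the 2 libraries farthest from the median yolk share only 4 remain, which cannot go below an exact permutation p of 0.0833, and r was −0.998 (vitelline membrane list) and −0.983 (chorion list) in *ERR[cond.2]* and 0.581 and −0.993 in *ERR[cond.19-4]*. Leaving out both libraries 1 of *ERR[cond.2]* changes no library of the *ERR[cond.19-4]* comparisons and was not run there.

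Replicate numbers in the labels were not taken to pair libraries, since deviations of libraries with the same number correlated at −0.298, −0.174 and 0.0048 in *ERR[cond.2]* females and at 0.016, 0.047 and −0.0015 in *ERR[cond.19-4]* females. With the replicate number as a block, 0 yolk genes were called in each knockout comparison, 0 for the difference between the stocks and 3 between controls, as without it. Over all genes the block moved the calls in *ERR[cond.2]* females from 61 to 9, and those for the difference between the stocks from 6 to 2.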

Other observations

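The genes whose pattern over the 12 libraries was most like that of the summed yolk protein genes were found by Pearson's r of log2 CPM among 7050 genes with a mean of at least 10 CPM. *Tsf1*, which encodes the secreted iron carrier transferrin 1, came first with r = 0.988, followed by *CG1667* (0.980), *CG3597* (0.978), *Cyp6w1*, a cytochrome P450 gene (0.977), and *CG30002* (0.976). The mean level of *Tsf1* was 7407 CPM in controls and 1639 CPM in knockouts of *ERR[cond.2]*, and 641 CPM and 668 CPM in those of *ERR[cond.19-4]*. The most opposite patterns were those of *CG43055* (−0.977), *nocte* (−0.976), *CG12404* (−0.973), *Capr* (−0.972) and *tou* (−0.971). These libraries share the difference between the stocks. Within the 6 *ERR[cond.19-4]* libraries r was 0.483 for *Tsf1*, 0.287 for *CG1667*, 0.294 for *CG3597*, 0.642 for *Cyp6w1* and 0.758 for *CG30002*. For the most opposite genes r there ran from −0.803 (*CG12404*) to −0.132 (*nocte*).

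The pattern of *yl* was most like that of *CG4554* (0.968), *RpLP0*, a ribosomal stalk protein gene (0.936), *Trip1*, a translation initiation factor subunit (0.931), *Hsc70-4*, a constitutive chaperone (0.928), and *RpS3A*, a ribosomal protein gene (0.924). It was most opposite to *CG9849* (−0.909), *CG5844* (−0.894), *CG8239* (−0.889), *Sod*, superoxide dismutase (−0.880), and *CG10527* (−0.880). Within the *ERR[cond.19-4]* libraries r with *yl* was 0.539 for *CG4554* and 0.308 for *RpLP0*, beside 0.995 and 0.988 within the *ERR[cond.2]* libraries. In the same *ERR[cond.19-4]* libraries r was 0.657 for *Trip1*, 0.220 for *Hsc70-4* and 0.317 for *RpS3A*. Of the 5 genes with the most opposite pattern, *CG8239*, *Sod* and *CG10527* had a positive r with *yl* within the *ERR[cond.19-4]* libraries (0.172, 0.328 and 0.794).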
